A study of Caenorhabditis elegans with 18 samples.

Results

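The abu and pqn genes of Caenorhabditis elegans were followed across 6 groups of whole N2 worms. Members were taken by name, as every gene whose symbol begins with abu- or pqn-, and no measured value decided which genes were included. The choice of this family was made with earlier results of these data known. This gave 70 of the 47020 genes in the expression tables, 14 abu and 56 pqn. Synchronized L1 larvae of the wild type strain N2 were fed bacteria expressing double-stranded RNA, either the empty vector control(RNAi), numr-1/2(RNAi) against the identical copies numr-1 and numr-2, or ints-4(RNAi) against a subunit of the integrator complex. Late L3 worms were moved to plates with 0 or 300 µM cadmium for 12 h and were collected between late L4 and young adult. Each of the 6 groups had 3 libraries, 18 in all, and all groups shared strain, feeding protocol and harvest window.

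The abu genes were named for their activation when the endoplasmic reticulum unfolded protein response is blocked, and the pqn genes for prion-like stretches rich in glutamine and asparagine. Many of the encoded proteins are secreted and line the pharynx, where they form part of the pharyngeal cuticle, the flexible lining of the feeding organ that is rebuilt at every moult. Transcripts of that cuticle subgroup rise and fall with the moulting cycle. Other pqn genes share only the sequence bias and have unrelated roles. Among these, pqn-59 is the worm ortholog of the ubiquitin-associated protein UBAP2L, and pqn-41 promotes the non-apoptotic death of the male linker cell. Members without a stated role below are described by their family alone.

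Expression was available as a single scaled value per gene and group, made by the authors from the pooled libraries of that group, so these values have no replicate spread and no test was run on them. Each of the 5 tables held one comparison with its own scaling. A difference was described as at least 2-fold when both values were above 0 and their ratio reached 2. Replicate-level values came from the splicing tables, which hold read counts over splicing events for every library. By the study's methods these counts take in junction reads and reads on targets. An event with reads in some group was present for 20 members, and 15 members had an event readable in all 18 libraries. The study's methods call the 3 libraries of a group biological replicates, without saying whether each came from a separate culture, and p-values measure only the spread between these libraries.

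The RNAi targets were read first. The value of ints-4 was 1484 in control(RNAi) and 642 in ints-4(RNAi), a log2 ratio of −1.21. The summed value of numr-1 and numr-2 was 27.2 in control(RNAi) and 30.5 in the group labelled numr-1/2(RNAi), which is no decrease in the absence of cadmium. With cadmium, the summed value was 371 in control(RNAi) and 108 in the libraries labelled numr-1/2(RNAi), in tables scaled separately. The directions given below for the numr-1/2(RNAi) groups rest on that label.

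Of the 70 members, 64 had a value above 0 in every group and pqn-76 and pqn-78 were listed at 0 in all of them. The remaining abu-5, pqn-57, pqn-79 and pqn-90 were above 0 in some groups only. A value of 10 or more was reached in some group by 62 members, and 27 members exceeded 1000 in control(RNAi). The genes pqn-76, abu-5, pqn-78 and pqn-79 lie next to each other on chromosome IV (WBcel235, 15579086 to 15596645) and have equal exon lengths of 1008 bases. Their sequences were not compared. If they are near-identical copies, their reads could be split or lost in counting, and the values of these 4 genes are uncertain.

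The members were spread over all 6 chromosomes, with 19 on V, 12 each on III and X, 10 on IV, 9 on II and 8 on I. Few had neighbours of their own family within 20000 bases. On chromosome V, abu-15, abu-6 and abu-7 lie between 5158602 and 5164782, within 6.18 kb, and abu-1 and pqn-2 lie side by side between 10380340 and 10384063 with coding sequences of 1275 bases each. The abu genes were compact, with a median coding length of 1174.5 bases and a median of 2.5 coding exons, against 1425 bases and 6 coding exons for pqn genes. The exceptions among abu genes were abu-12 with 13 coding exons and abu-10 and abu-13 with 7 each.

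Levels in control(RNAi) differed widely within the family. The highest values were 20981 for pqn-59, 17692 for pqn-87, 9042 for pqn-32, 7541 for pqn-52 and 6094 for pqn-22. Per kb of exon, pqn-59 remained first at 9071 and pqn-32 came next at 4615. Among abu genes the order was led by abu-14 at 5496, abu-13 at 4239 and abu-12 at 3333. At the low end abu-4 was at 10.5 and abu-2 at 5.45. The UBAP2L ortholog pqn-59 was also among the steadiest members, with values between 19498 and 22570 over the 10 group values of the 5 tables.

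The first comparison asked how cadmium changed expression in worms fed the empty vector. In control(RNAi), 9 of 64 members were at least 2-fold lower with cadmium (7.42% of all 19450 genes) and 3 were at least 2-fold higher (11.8%). The members' median log2 ratio was −0.10 against −0.01 for all genes. Of 13 measured abu genes 4 were at least 2-fold lower and none higher, with a median of −0.66. Of 51 measured pqn genes 5 were at least 2-fold lower and 3 higher, with a median of 0.01. The pair abu-6 and abu-7 stood lowest with pqn-2. The value of abu-6 was 268 without and 53.2 with cadmium, 5.04-fold lower. That of abu-7 was 432 and 130, 3.32-fold lower, and that of pqn-2 was 541 and 115, a log2 ratio of −2.23. These were followed by pqn-54, from 1047 to 383, and pqn-63, from 1090.3 to 491. Not every abu gene was lower. The abundant, many-exon abu-12 was at 3333 and 3740 and abu-13 at 4239 and 4921, while abu-10 was at 365 and 367. The members that were at least 2-fold higher were pqn-31, from 449 to 1007, pqn-94, from 429 to 937, and pqn-71, from 45.3 to 92.4. Below that threshold, pqn-73 had a log2 ratio of 0.86 and pqn-48 one of 0.73.

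**Figure D1:**
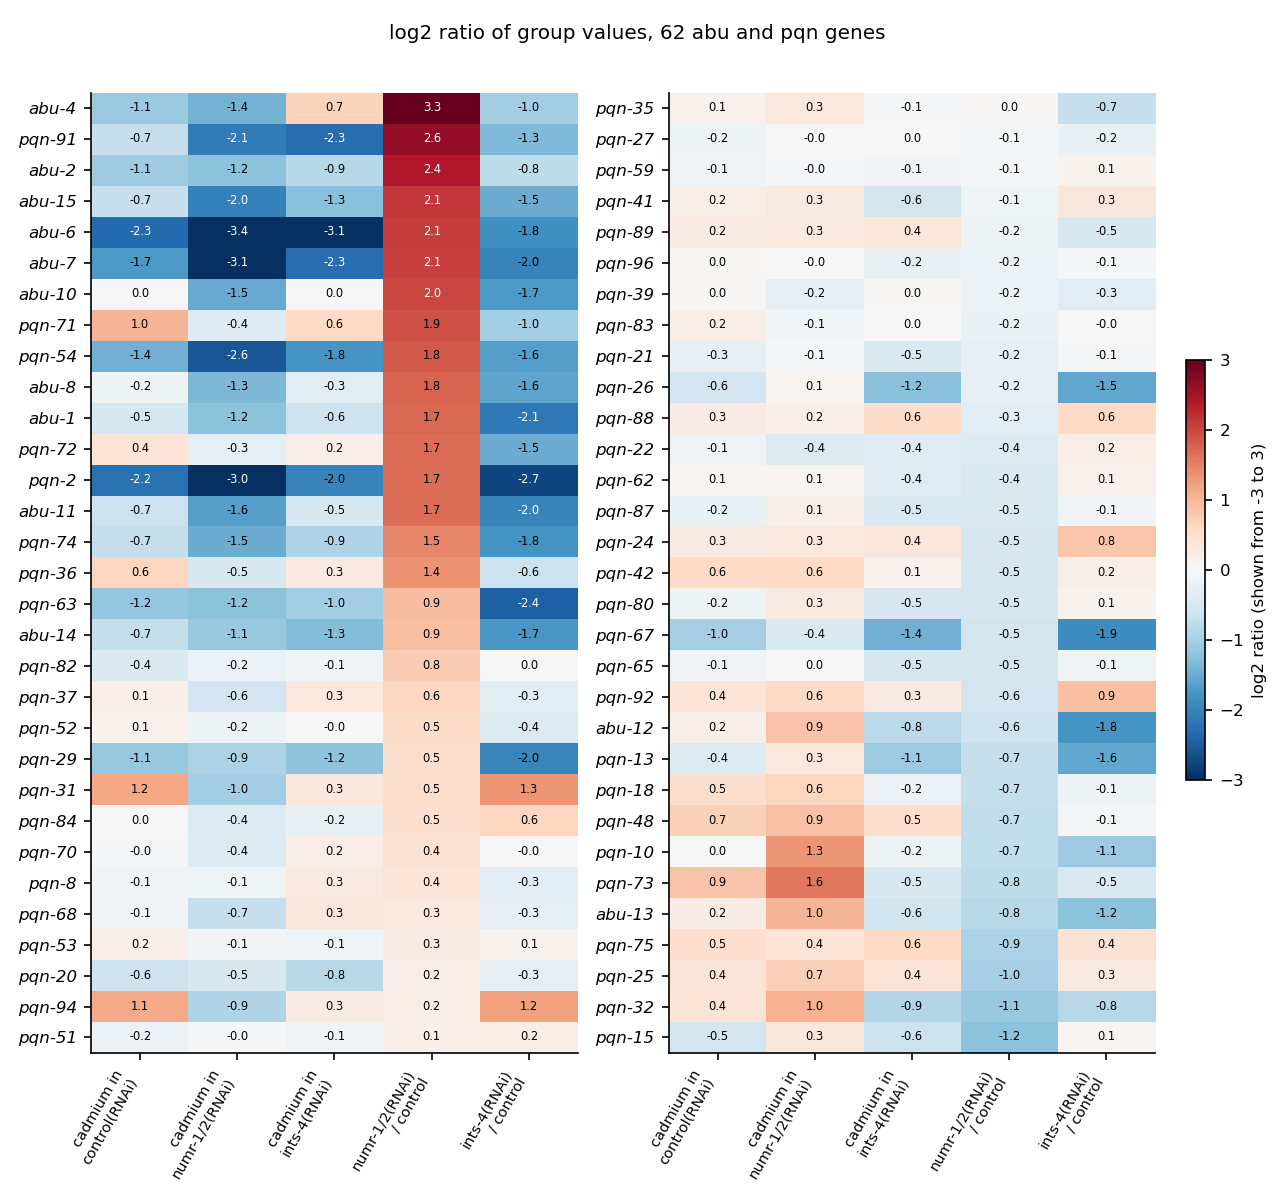
Log2 ratios of group values for the 62 abu and pqn genes with a value of at least 10 in some group, 1 row per gene ordered by the ratio in the group labelled numr-1/2(RNAi), 1 column for each of the 5 comparisons, colour from −3 (lower) to 3 (higher). Most abu genes are higher in numr-1/2(RNAi) and lower in ints-4(RNAi), while abu-12 and abu-13 are lower in both.

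The second comparison set numr-1/2(RNAi) against control(RNAi) in the absence of cadmium, and here most abu genes were higher. In this group 19 of 66 members were at least 2-fold higher (10.6% of 19530 genes) and 3 were at least 2-fold lower (11.4%). Of the higher members, 10 were abu genes out of 13 measured and none of the abu genes was at least 2-fold lower. The abu median was 1.76 and the pqn median −0.13, beside −0.03 for all genes. The largest ratios belonged to low genes. abu-4 was at 10.4 in control(RNAi) against 101 in numr-1/2(RNAi), abu-2 at 5.40 and 28.5, and pqn-91 at 4.13 and 25.5. More abundant abu genes were also several-fold higher. abu-6 went from 266 to 1121 (4.21-fold), abu-7 from 429.6 to 1779.7 (4.14-fold) and abu-15 from 436 to 1901. Larger levels still were reached by abu-8, from 1066 to 3614, abu-11, from 989 to 3156, and abu-1, from 711 to 2363. The most abundant abu gene, abu-14, was at 5476 and 10255, short of 2-fold. Several pqn genes with 6 or fewer coding exons stood with them. pqn-54 was at 1043 and 3751, pqn-74 at 2535.5 and 7019, and pqn-2 at 538 and 1719. Among pqn genes with more coding exons, pqn-72 with 11 and pqn-36 with 10 were also at least 2-fold higher. Their log2 ratios were 1.68 and 1.35. In the opposite direction abu-13 was at 4223 and 2361 and abu-12 at 3321 and 2174. The members at least 2-fold lower were pqn-15, from 302 to 129.6, pqn-32, from 9007.5 to 4123.5, and pqn-25, from 596 to 297, and pqn-75 had a log2 ratio of −0.95.

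The third comparison set ints-4(RNAi) against control(RNAi), and most abu genes were lower. In ints-4(RNAi) without cadmium, 23 of 64 members were at least 2-fold lower (10.2% of 20113 genes) and 2 were at least 2-fold higher (14.8%). Among abu genes 11 of 13 were at least 2-fold lower, with a median of −1.73, while 12 of 51 pqn genes were, with a median of −0.13. The all-gene median was 0.06. The lowest ratios were those of pqn-2, from 542 to 80.6, pqn-63, from 1094 to 201, abu-1, from 716 to 163, abu-11, from 996 to 247, and abu-7, from 433 to 108. Here abu-12, abu-13 and abu-14 were lower with the rest of their family. Their values were 3342 and 974 for abu-12, 4251 and 1809 for abu-13, and 5513.5 and 1646 for abu-14. The 2 members at least 2-fold higher were pqn-31, from 449.6 to 1118, and pqn-94, from 429 to 999. They lie apart on chromosome V, starting at 9109581 and 20278654. The genes pqn-92, pqn-24 and pqn-84 followed with log2 ratios of 0.91, 0.84 and 0.64. Both RNAi comparisons and the cadmium comparison above use control(RNAi) without cadmium, so their values are set side by side and no agreement between them was computed.

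**Figure D2:**
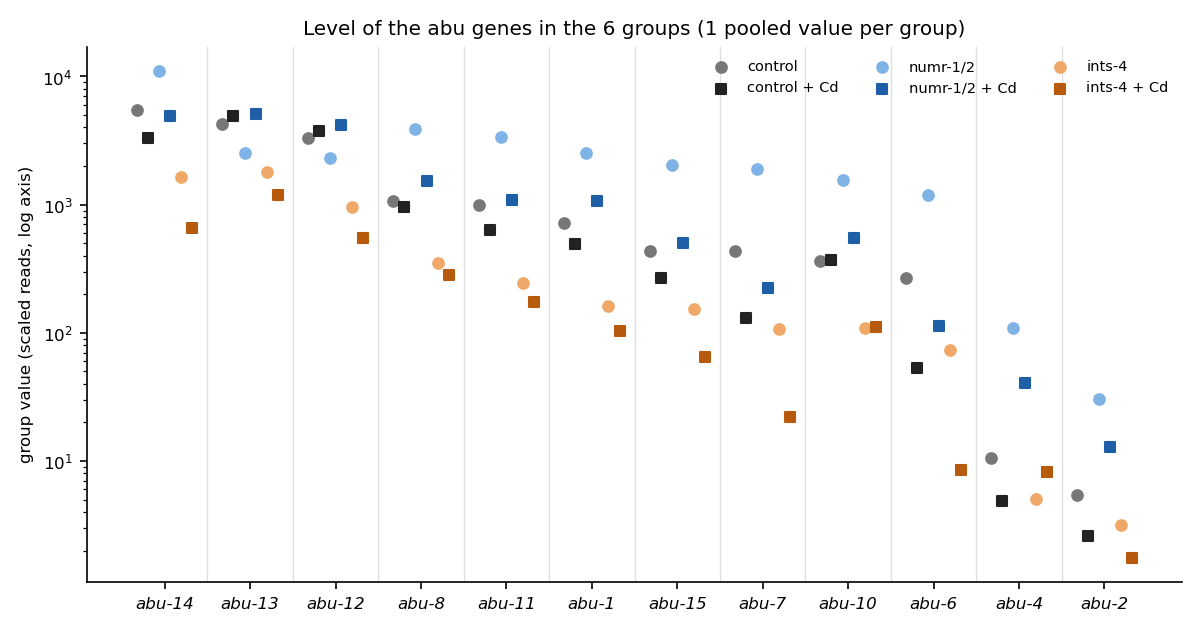
Group values of 12 abu genes on a vertical log axis, 1 column per gene, circles without and squares with cadmium, grey and black for control(RNAi), blue for numr-1/2(RNAi) and orange for ints-4(RNAi), each point a pooled value with no replicate error. Each RNAi background comes from its own cadmium table, and those tables were scaled separately. The numr-1/2(RNAi) circles lie highest and the ints-4(RNAi) points lowest for most genes, and abu-6 and abu-7 show the widest distance between circles and squares.

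Cadmium was also added to each RNAi group. In numr-1/2(RNAi), 17 of 67 members were at least 2-fold lower with cadmium (7.52% of 19843 genes) and 5 were at least 2-fold higher (13.3%), with medians of −0.16 for members, 0.03 for all genes and −1.29 for abu genes. abu-6 was at 1199 without and 112 with cadmium, 10.7-fold lower. abu-7 was at 1903 and 222, 8.56-fold lower, pqn-2 at 1838 and 232, and pqn-54 at 4010.2 and 677. Of 14 abu genes, 10 were at least 2-fold lower with cadmium in this group and abu-13 was at least 2-fold higher. abu-8 was at 3864 and 1520.1, abu-14 at 10964 and 4958, and abu-15 at 2033 and 503. The rare pqn-91, a neighbour of pqn-90 on chromosome IV, was at 27.3 and 6.33. The members at least 2-fold higher included pqn-32, from 4408 to 9053, abu-13, from 2524 to 5136, pqn-73, from 73.5 to 218, and pqn-10, from 16.0 to 40.4. abu-12 was at 2324 and 4193. The low gene pqn-16 was the other member above 2-fold, from 2.42 to 7.23, and pqn-48 reached 0.87.

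In ints-4(RNAi), 12 of 64 members were at least 2-fold lower with cadmium (7.77% of 22314 genes) and none was at least 2-fold higher (8.2%), with a median of −0.20 against −0.01 for all genes. The lowest ratios again belonged to abu-6, abu-7 and pqn-2. abu-6 was at 73.6 and 8.46, 8.71-fold lower, abu-7 at 107 and 22.1, 4.87-fold lower, and pqn-2 at 79.7 and 20.02. pqn-54 was at 333 and 97.4 and pqn-67 at 84.97 and 31.2. In this group abu-12 and abu-13 were lower with cadmium rather than higher. abu-12 was at 964 and 550.3 and abu-13 at 1790.0 and 1189.6. The largest positive log2 ratios were 0.60 for pqn-71, 0.60 for pqn-75, 0.56 for pqn-88, 0.50 for pqn-48 and 0.40 for pqn-25.

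The 3 cadmium comparisons share no group, and the members lower in one could be counted in another. When only genes with a value of at least 10 in either group were kept, members at least 2-fold lower numbered 7 of 60 in control(RNAi) (4.58% of all genes), 16 of 62 in the numr-1/2(RNAi) background (5.17%) and 11 of 59 in ints-4(RNAi) (3.3%), and those at least 2-fold higher 3 (8.79%), 4 (9.99%) and 0 (4.17%). Of these, 6 were at least 2-fold lower in the first background as well as the second, out of 7 and 14 that could be compared, while for all genes the count was 386 of 691 and 723. Between the first and the third, 6 members were lower in both out of 6 and 11, and 96 of all genes out of 644 and 303. Between the second and the third, 7 members were lower in both out of 13 and 11, and 87 of all genes out of 663 and 285. The genes abu-6, abu-7, pqn-2, pqn-54 and pqn-63 were at least 2-fold lower with cadmium in all 3 backgrounds. The ints-4(RNAi) effect without cadmium and the cadmium effect in numr-1/2(RNAi) likewise use separate groups. With the same minimum value, 22 of 60 members were lower in ints-4(RNAi) (8.7%) and 2 higher (11%), and in the numr-1/2(RNAi) group without cadmium 16 of 62 were higher (8.54%) and 3 lower (7.92%). For the first pair 13 members were lower in both, out of 22 and 14, and 9 of these were abu genes, out of 11 and 9, while 353 of all genes were lower in both, out of 1403 and 735. The numr-1/2(RNAi) effect without cadmium and the cadmium effect in ints-4(RNAi) also share no group. Of 13 members higher in the former and 11 lower in the latter, 5 were the same, and none of the 3 lower in the former was lower in the latter, while for all genes 63 were the same out of 1141 and 297.

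The RNAi groups were also compared with each other in the presence of cadmium, by chaining the ratios of the tables that share a group. With cadmium, numr-1/2(RNAi) had 7 of 64 members at least 2-fold higher (10.5% of 18706 genes) and 3 at least 2-fold lower (7.67%), and ints-4(RNAi) had 24 of 64 at least 2-fold lower (9.35% of 19008 genes) and 1 at least 2-fold higher (11.7%). The abu medians were 0.69 and −2.04. With a value of at least 10 in either group these counts were 4 higher (8.76%) and 3 lower (5.37%) of 61, and 0 higher (8.54%) and 23 lower (8.22%) of 59. For numr-1/2(RNAi) the log2 ratio was 2.96 for abu-4, 2.23 for abu-2 and 1.03 for abu-1, and it was −1.86 for pqn-94 and −1.68 for pqn-31. The last pair had been higher with cadmium in control(RNAi), whereas in numr-1/2(RNAi) pqn-31 was at 685 without and 336 with cadmium, and pqn-94 at 517 and 274. In ints-4(RNAi) with cadmium the lowest log2 ratios were −2.75 for abu-12, −2.64 for abu-6, −2.55 for abu-7, −2.52 for pqn-2 and −2.34 for pqn-67.

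The differences were also read by gene structure. Divided at the median of 6 coding exons, 40 members had 6 or fewer and 30 had more. Without cadmium, 16 of 36 measured members with few exons and 3 of 30 with many were at least 2-fold higher in numr-1/2(RNAi), beside 10.6% of all genes, with median log2 ratios of 0.72 and −0.32. The count for many exons was thus near the share of all genes. In ints-4(RNAi), 16 of 34 with few exons and 7 of 30 with many were at least 2-fold lower without cadmium, beside 10.2% of all genes, with medians of −0.79 and −0.23. With cadmium in control(RNAi), 9 of 34 and 0 of 30 were at least 2-fold lower (7.42% of all genes), with medians of −0.17 and 0.06. With cadmium in the numr-1/2(RNAi) background these counts were 16 of 37 and 1 of 30 (7.52%), with medians of −0.81 and 0.08. For the ints-4(RNAi) groups with cadmium the medians lay closer together or in the opposite order. With cadmium in ints-4(RNAi), 9 of 34 and 3 of 30 were at least 2-fold lower (7.77%), but the median was lower for many exons, at −0.30 against −0.14 for few. When both groups had cadmium, 16 of 34 and 8 of 30 were at least 2-fold lower in ints-4(RNAi) (9.35%), with medians of −0.43 and −0.38, and 6 of 34 and 1 of 30 were at least 2-fold higher in numr-1/2(RNAi) (10.5%), with medians of 0.54 and −0.04. The division overlaps family membership only in part. The side with few exons held 11 of the 14 abu genes, but most of its 40 members were pqn genes. It was read as a description.

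Replicate values could be formed for members with alternative splicing events, because those tables give reads for each library. Reads over the most covered event of a gene were summed, scaled to 1000000 reads over all events readable in the 18 libraries (scaled reads), and tested on the log2 scale with limma and Benjamini-Hochberg adjustment over all genes tested. The libraries held between 550170 and 924036 such reads, and 13 members had at least 10 in every library. abu-12 was the only abu gene among them, so the other abu genes have no replicate test.

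**Figure D3:**
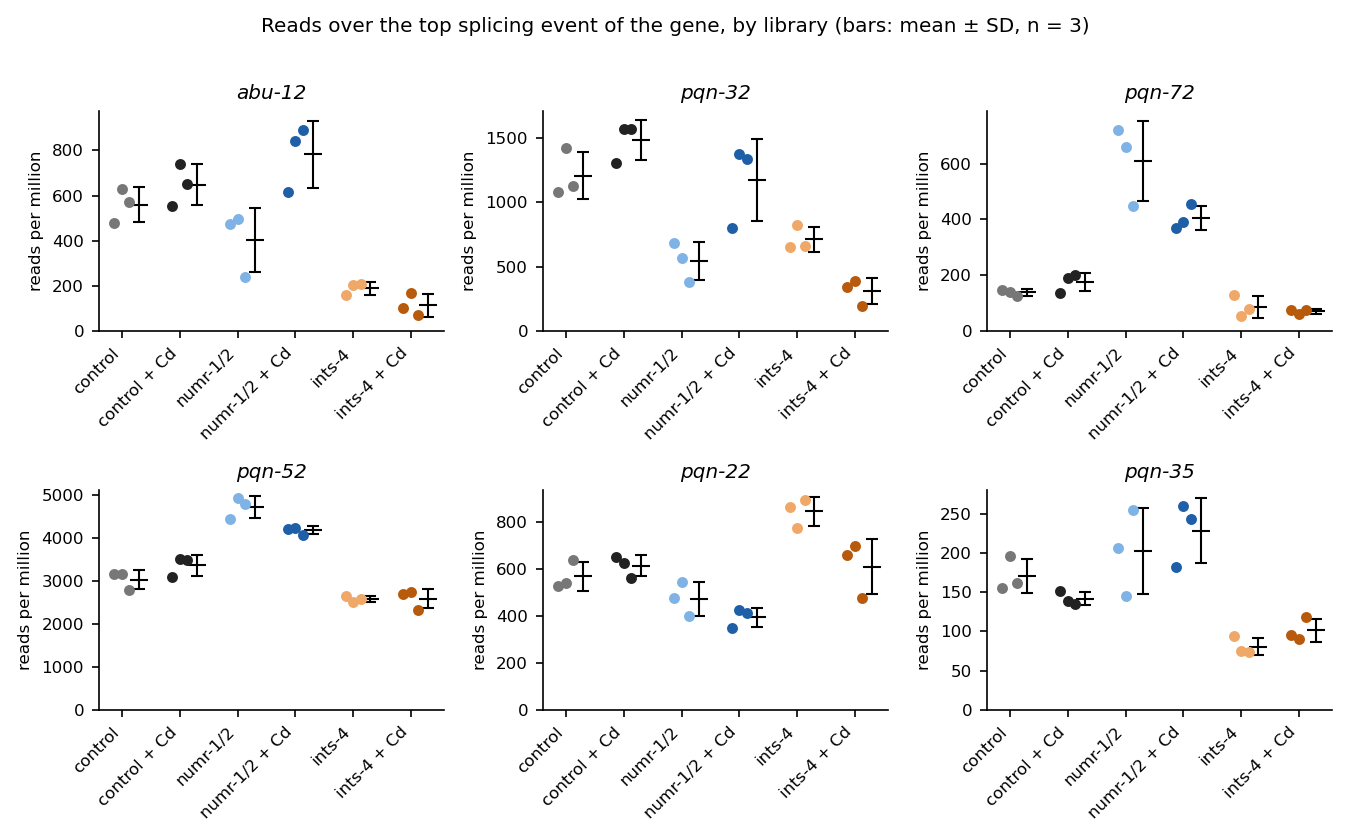
Scaled reads (per 1000000) over the most covered splicing event of abu-12, pqn-32, pqn-72, pqn-52, pqn-22 and pqn-35 in every library, points for the 3 libraries of each of the 6 groups, bars for mean ± SD. For pqn-72 the libraries of both numr-1/2(RNAi) groups lie above all others, and for abu-12 those of both ints-4(RNAi) groups lie below all others.

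In numr-1/2(RNAi) without cadmium, 4 of 13 members rose (12.9% of 1036 genes) and 1 fell (7.14%). pqn-72 had 149, 141 and 126 scaled reads in control(RNAi) against 721, 659 and 447 in numr-1/2(RNAi). The 2 sets of libraries were far apart and the difference was 2.11 on the log2 scale (SE 0.21, limma adjusted p = 0.000207). pqn-52 had 3149, 3161 and 2778 in control(RNAi) against 4428, 4929.8 and 4797 in numr-1/2(RNAi), a rise of 0.64 (SE 0.12, limma adjusted p = 0.00496). pqn-32 fell, from 1078, 1419 and 1126 to 684, 564 and 384, by 1.18 on the log2 scale (SE 0.21, limma adjusted p = 0.00411). The reads of pqn-53 are those of a retained intron event of 382 bases, intron reads included. Its difference of 0.73 in these reads stands beside a log2 ratio of 0.26 in its group values, and pqn-70 has 0.82 beside 0.45. The rises of pqn-53 reads (0.73, SE 0.18, limma adjusted p = 0.0159) and pqn-70 (0.82, SE 0.26, limma adjusted p = 0.0461) were each lost when a single library was left out. For pqn-53 these were control(RNAi) replicate 2 (adjusted p = 0.0674), numr-1/2(RNAi) replicate 1 (0.0556) and replicate 2 (0.0548). For pqn-70 they were control(RNAi) replicates 2 (0.156) and 3 (0.147) and numr-1/2(RNAi) replicates 2 (0.129) and 3 (0.108).

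In ints-4(RNAi) without cadmium, 3 of 13 members fell (7.58% of 1068 genes) and pqn-22 rose (11% for rises). abu-12 had 478, 631 and 571 scaled reads in control(RNAi) and 157, 202 and 207 in ints-4(RNAi). No library of one group reached into the other, and the difference was −1.57 on the log2 scale (SE 0.17, limma adjusted p = 2.31e-05). pqn-35 had 155, 196 and 162 in control(RNAi) and 93.9, 74.4 and 73.8 in ints-4(RNAi), a difference of −1.08 (SE 0.24, limma adjusted p = 0.00582). pqn-32 was at 653, 824 and 659 in ints-4(RNAi), a difference of −0.76 from control(RNAi) (SE 0.14, limma adjusted p = 0.00186). Against this direction, pqn-22 had 529, 542 and 641 in control(RNAi) and 867, 775 and 897 in ints-4(RNAi), a rise of 0.57 (SE 0.13, limma adjusted p = 0.00699), while its group values had a log2 ratio of 0.20.

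With cadmium present in both groups, the ints-4(RNAi) differences of abu-12 and pqn-32 were also past the threshold. In that comparison 3 of 13 members fell (5.64% of 1028 genes) and none rose (5.84%, 0 at an unadjusted limma p under 0.05). abu-12 had 555, 740.0 and 652 scaled reads in control(RNAi) with cadmium and 102, 169 and 70.9 in ints-4(RNAi) with cadmium, a difference of −2.58 (SE 0.29, limma adjusted p = 8.4e-05). pqn-32 had 1309, 1575 and 1571 and then 345, 386 and 196, a difference of −2.31 (SE 0.23, limma adjusted p = 2.68e-05). Every library of both genes followed its group. pqn-72 had 137, 189 and 201 and then 75.2, 60.8 and 74.5, a difference of −1.30 (SE 0.30, limma adjusted p = 0.0132) that did not pass without control(RNAi) with cadmium replicate 2 (0.0748) or replicate 3 (0.073). When both groups had cadmium, numr-1/2(RNAi) was compared with control(RNAi) as well, and 1 of 13 members rose (13.3% of 1062 genes) and 1 fell (5.27%). The riser was again pqn-72, at 369, 392 and 454, with a difference of 1.21 (SE 0.21, limma adjusted p = 0.00176). The member that fell was pqn-22, from 650.4, 629 and 564 to 350.0, 426 and 412, with a difference of −0.63 (SE 0.16, limma adjusted p = 0.0165) that did not pass without control(RNAi) with cadmium replicate 2 (0.0579) or numr-1/2(RNAi) with cadmium replicate 3 (0.0633).

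The cadmium effect itself passed the threshold for few members, and each of these calls depended on single libraries. In control(RNAi), 1 of 13 rose (5.39% of 1057 genes) and none fell (3.41%, 0 at an unadjusted limma p under 0.05). The riser was the reads of the pqn-53 retained intron event, from 213, 199.7 and 234 to 298, 358 and 393, by 0.69 (SE 0.20, limma adjusted p = 0.0391), while the group value of pqn-53 had a log2 ratio of 0.16. The call was lost without control(RNAi) replicate 1 (0.0566) or 2 (0.178) and without control(RNAi) with cadmium replicate 2 (0.15) or 3 (0.163). Of the 13 members, 2 rose with cadmium in numr-1/2(RNAi) (7.95% of 1044 genes) and none fell (4.69%, 1 at an unadjusted limma p under 0.05). pqn-32 had 804, 1375 and 1334 with cadmium, above the 684, 564 and 384 without it, a rise of 1.10 (SE 0.25, limma adjusted p = 0.0162). abu-12 had 472, 496 and 240.4 without and 615, 844 and 891 with cadmium, a rise of 1.01 (SE 0.27, limma adjusted p = 0.0336). Both calls were lost without numr-1/2(RNAi) with cadmium replicate 2 (0.0555 for pqn-32 and 0.0878 for abu-12) or replicate 3 (0.0983 and 0.15). In ints-4(RNAi), 1 of 13 fell with cadmium (1.62% of 1047 genes) and none rose (2.1%, 0 at an unadjusted limma p under 0.05). The one that fell was again pqn-32, with a difference of −1.25 (SE 0.24, limma adjusted p = 0.0123) that was lost without ints-4(RNAi) replicate 1 (0.0579), 2 (0.0899) or 3 (0.0507). The cadmium effects were also compared between backgrounds in 1 limma fit of all 6 groups, chosen after seeing the data. pqn-32 was the only member whose cadmium effect in ints-4(RNAi) differed from that in control(RNAi) (4.2% of 977 genes), by −1.55 on the log2 scale (SE 0.35, limma adjusted p = 0.0209), and the call was lost without control(RNAi) replicate 1 (0.0524) or ints-4(RNAi) replicate 2 (0.0601). No member differed in this way for numr-1/2(RNAi) (1.33%), where 4 had an unadjusted limma p under 0.05. Over the 7 comparisons, the sign of the library-level difference was that of the group value for 8 to 13 of the 13 members.

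Inclusion levels could be compared for 35 events in 18 member genes. An inclusion level is the share of an event's length-corrected reads that carry the longer form, and it was tested by a quasi-binomial model with the spread shrunk across all events. Of 25 member events tested in numr-1/2(RNAi) without cadmium, 2 changed (6.84% of 2164 events), and 2 of 21 changed in numr-1/2(RNAi) with cadmium (9.28% of 1810). With cadmium in numr-1/2(RNAi), 2 of 25 changed (4.7% of 2191). None changed with cadmium in control(RNAi) (1.96% of 2044 events) or in ints-4(RNAi) (0.536% of 1866), nor in ints-4(RNAi) without (1.57% of 2290) or with cadmium (0.351% of 1995). For these 4 comparisons the quasi-binomial model gave an unadjusted p under 0.05 for 4, 1, 1 and 0 member events. A limma test of log2 read ratios, adjusted the same way, called 0 member events in each of the 7 comparisons, so that all 6 calls rest on the quasi-binomial model. In the 3 comparisons with calls it called 0 of all events, and 1, 3 and 3 member events had an unadjusted limma p under 0.05 for cadmium in numr-1/2(RNAi), numr-1/2(RNAi) without and numr-1/2(RNAi) with cadmium.

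**Figure D4:**
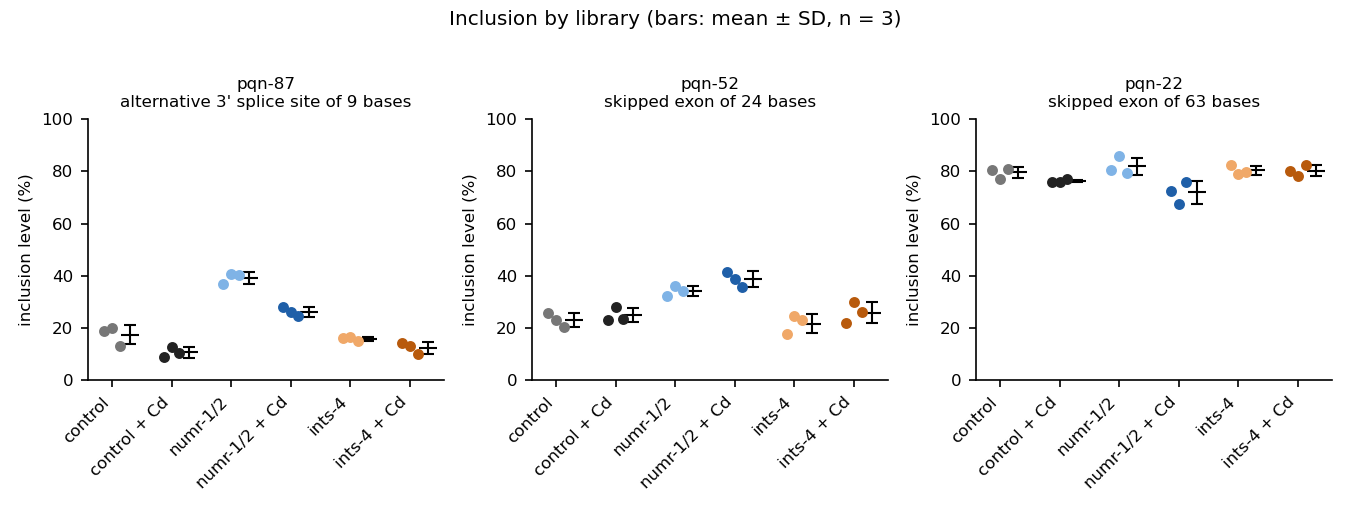
Inclusion level in percent for the 9-base alternative 3′ splice site of pqn-87, the 24-base exon of pqn-52 and the 63-base exon of pqn-22, points for the 3 libraries of each of the 6 groups, bars for mean ± SD. The numr-1/2(RNAi) libraries lie above the control(RNAi) and ints-4(RNAi) libraries for pqn-87 and pqn-52.

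The clearest event was a 9-base extension at an alternative 3′ splice site within the coding sequence of pqn-87 (chromosome II, 12211174 to 12211182, minus strand), a member with the second highest group value in control(RNAi) and the fifth highest per kb of exon. Inclusion was 18.6, 20.1 and 13.1% in the libraries of control(RNAi) and 36.6, 40.8 and 40.2% in those of numr-1/2(RNAi). The means were 17.2% ± 3.67 and 39.2% ± 2.25 (SD, n = 3), and the groups did not overlap (quasi-binomial adjusted p = 5.26e-06 across all events, limma squeezing of the spread). With cadmium, inclusion was 8.64, 12.7 and 10.3% in control(RNAi) against 27.9, 25.9 and 24.3% in numr-1/2(RNAi), again without overlap (adjusted p = 1.16e-06). Within numr-1/2(RNAi) the longer form fell with cadmium (adjusted p = 2.45e-05). In control(RNAi) the corresponding difference, from 17.2 to 10.5%, had an adjusted p of 0.0653 and ranged from 0.0254 to 0.333 when single libraries were left out. The ints-4(RNAi) libraries gave 15.9, 16.3 and 14.8% without and 14.0, 12.8 and 9.84% with cadmium, close to those of control(RNAi). By the limma test of log2 read ratios the adjusted p of these 3 pqn-87 calls was 0.233 for numr-1/2(RNAi) without cadmium, 0.172 with cadmium and 0.428 for cadmium in numr-1/2(RNAi). The event had 893 to 2021 reads per library and its length keeps the reading frame.

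A 24-base exon in the coding sequence of pqn-52 had inclusion levels of 25.7, 22.99 and 20.1% in control(RNAi), against 32.2, 35.9 and 34.0% in numr-1/2(RNAi) (adjusted p = 0.00138). With cadmium the levels were 23.1, 27.9 and 23.4% and 41.5, 38.7 and 35.5% (adjusted p = 0.000166). The numr-1/2(RNAi) libraries were the higher ones in both comparisons, and the values in ints-4(RNAi), 21.6% ± 3.63 without and 25.8% ± 4.04 with cadmium (SD, n = 3), lay near those of control(RNAi). The 63-base exon of pqn-22 (chromosome IV, 6023227 to 6023289, minus strand) was included in 80.5, 85.8 and 79.5% in numr-1/2(RNAi) and in 72.6, 67.4 and 75.8% in the same group with cadmium (adjusted p = 0.0383). This call was lost without numr-1/2(RNAi) replicate 2 (0.223) and without numr-1/2(RNAi) with cadmium replicate 1 (0.0947) or 2 (0.194). By the limma test of log2 read ratios the adjusted p was 0.393 and 0.320 for pqn-52 and 0.517 for pqn-22. A 6-base alternative 3′ splice site of pqn-32 (chromosome II, 13108423 to 13108428, plus strand) was at 79.1% ± 3.14 (SD, n = 3) in control(RNAi) and between 78.5 and 84.8% on average in the other groups, and it was not called.

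Genes with related roles were read beside the family, in lists chosen with earlier results of these data known. A list of 18 genes for pharyngeal cuticle proteins outside the family, mainly the idpa, idpb and idpc genes for disordered secreted proteins, had medians of the same sign as the abu genes in all 5 tables. Its counts of at least 2-fold differences were 13 higher and 0 lower in numr-1/2(RNAi) (median 1.53), 0 and 13 in ints-4(RNAi) (median −1.40), 0 and 5 with cadmium in control(RNAi) (median −0.57), 0 and 13 with cadmium in numr-1/2(RNAi) (median −1.45), and 1 and 7 with cadmium in ints-4(RNAi) (median −0.87). As an example, idpc-4 was at 904 without and 324 with cadmium in control(RNAi), at 3145 and 655 in numr-1/2(RNAi), and at 206 and 57.3 in ints-4(RNAi). In ints-4(RNAi) without cadmium, idpc-5 went from 646 to 129 and idpc-1 from 3188 to 727. The summed value of the abu genes was 17367 in control(RNAi), 32408 in numr-1/2(RNAi) and 5596 in ints-4(RNAi), and that of the cuticle list was 10299, 23919 and 3327. These sums were taken for each RNAi background from its own cadmium table, and those tables were scaled separately.

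In the numr-1/2(RNAi) comparisons, genes of moulting and the body cuticle had medians opposite in sign to those of the abu genes. Of 16 moulting and apical matrix genes, 14 were at least 2-fold lower in numr-1/2(RNAi) and none higher, with a median of −2.16. The fibrillin-like gene fbn-1 was at 3701 and 241, the mucin-like dpy-6 at 2545 and 186, and the protease inhibitor gene mlt-11 at 30062 and 3240.4. With cadmium in numr-1/2(RNAi), 11 of the 16 were at least 2-fold higher, among them dpy-6, from 199 to 1048. In control(RNAi) none of the 16 reached 2-fold with cadmium (median −0.02). In ints-4(RNAi) without cadmium 12 of the 16 were below 0 and 1 was at least 2-fold lower (median −0.16). With cadmium in ints-4(RNAi) all 16 were below 0 and 4 were at least 2-fold lower. The median there was −0.73, of the same sign as the −0.63 of the abu genes. Of 9 regulators of the moulting cycle, 5 were at least 2-fold lower in numr-1/2(RNAi), among them the transcription factor genes myrf-1, from 4150.1 to 1034, and grh-1, from 1303 to 377. abu-12, abu-13 and pqn-32 were also lower there and higher with cadmium in numr-1/2(RNAi).

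The pathway that gave the abu genes their name was also read, beside the share of all genes. Of 17 genes of the unfolded protein response of the endoplasmic reticulum, 2 were at least 2-fold higher with cadmium in control(RNAi) (11.8% of all genes). They were hsp-4, the worm BiP, from 13735 to 31324, and ckb-2, from 1178 to 4209.7. ckb-2 was also the 1 member of this list at least 2-fold higher with cadmium in each RNAi background. It went from 1090.1 to 2283 in numr-1/2(RNAi) (13.3% of all genes) and from 985 to 2396 in ints-4(RNAi) (8.2%). Without cadmium, 2 of 17 were at least 2-fold lower in numr-1/2(RNAi) (11.4% of all genes), the chaperone genes dnj-27, from 2941 to 1049, and pdi-2, from 142355 to 61012. Both counts of 2 were thus near the share of all genes. The list medians were 0.27 with cadmium in control(RNAi), −0.51 in numr-1/2(RNAi) and −0.04 in ints-4(RNAi). None of 5 genes reported to act on abu expression, among them xbp-1 and octr-1, reached 2-fold in any of the 5 tables. By the chained ratios, when both groups had cadmium, all 5 were below 0 in numr-1/2(RNAi) (median −0.23). There 1 of them was at least 2-fold lower (7.67% of all genes).

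**Figure D5:**
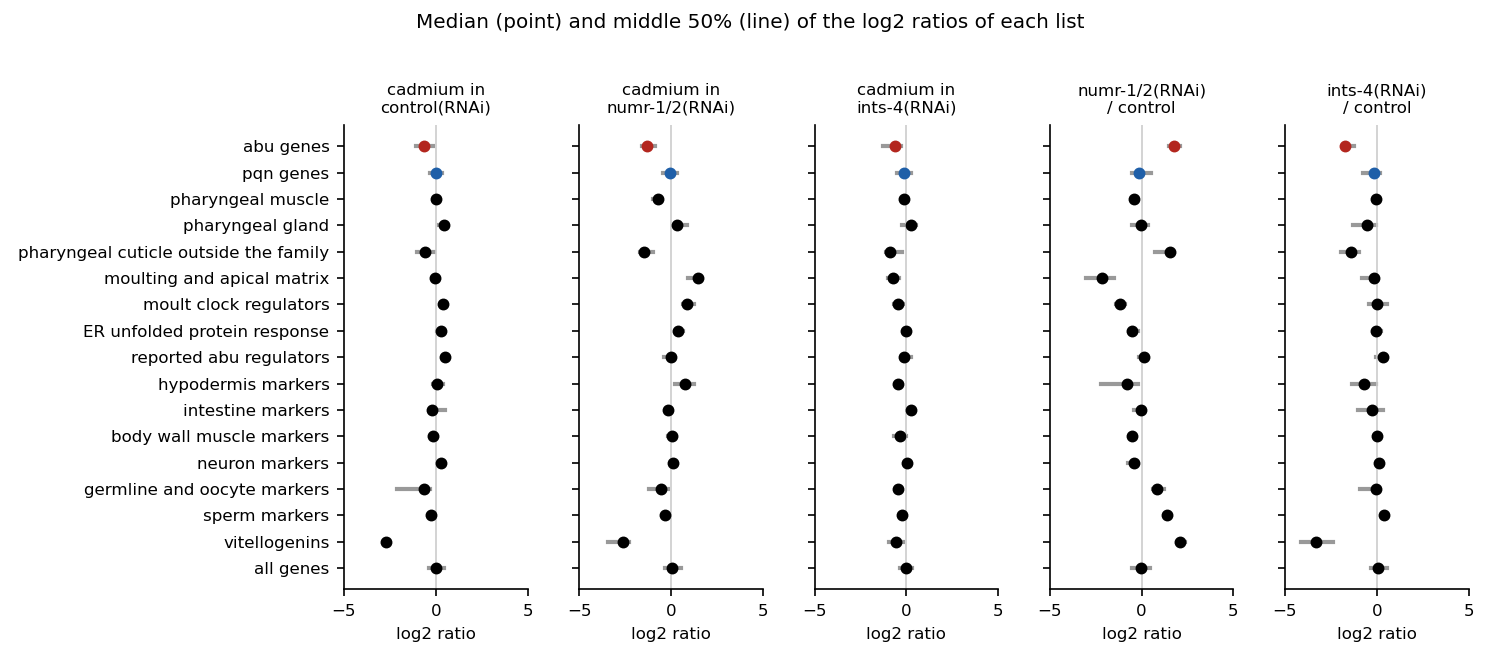
Median (point) and middle 50% (line) of log2 ratios of group values for the abu genes, the pqn genes and the gene lists in the 5 comparisons, with no replicate error. For numr-1/2(RNAi) the abu genes and the pharyngeal cuticle, germline and oocyte, sperm and vitellogenin lists lie above 0, and the moulting lists are among those below it.

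Markers of tissues and of developmental stage moved with the groups as well, and their part in the abu and pqn differences was not tested. In whole worms, fewer cells of a type and less RNA per cell cannot be told apart. In numr-1/2(RNAi) without cadmium, 38 of 42 sperm genes were at least 2-fold higher (median 1.39). So were 5 of 11 germline and oocyte genes (median 0.83) and all 6 vitellogenin yolk genes (median 2.09). The adult collagen gene col-19 was at 10184 in control(RNAi) and 53881 there, but 5 of the 6 hypodermis markers, a list that includes it, were below 0. The summed values in this paragraph were likewise taken for each RNAi background from its own cadmium table, scaled separately. The summed sperm value was 76347 in control(RNAi), 214035 in numr-1/2(RNAi) and 96654 in ints-4(RNAi). The summed vitellogenin value was 98886, 414626 and 18332 in the same order, and col-19 was at 10256 and 1158 in the ints-4(RNAi) table. With cadmium in control(RNAi) the 6 vitellogenin genes were at least 2-fold lower (median −2.71), as were 4 of 11 germline and oocyte genes (median −0.67), and all 11 were below 0. The eggshell gene cbd-1 was at 13661 without and 2450.1 with cadmium, and the yolk receptor gene rme-2 at 4847 and 1084. None of 41 sperm genes reached 2-fold there. With cadmium in the numr-1/2(RNAi) background all 6 vitellogenin genes (median −2.62) and 4 of 11 germline genes (median −0.57) were at least 2-fold lower, and in ints-4(RNAi) 2 and 0 were. In ints-4(RNAi) without cadmium 5 vitellogenin genes and 3 germline genes were at least 2-fold lower (medians −3.31 and −0.04). Markers of the pharynx, the organ that carries the cuticle, had medians nearer to 0 than the abu genes in the RNAi comparisons without cadmium. None of 6 pharyngeal muscle genes reached 2-fold in numr-1/2(RNAi) (median −0.43) or in ints-4(RNAi) (median −0.03). The summed pharyngeal muscle value was 30765, 23472 and 28214 in the same order without cadmium, and 28039, 14014 and 23970.2 with cadmium, where 5 of the 6 genes were at least 2-fold lower in numr-1/2(RNAi) than in control(RNAi) (median −1.11). Of 7 pharyngeal gland genes, 3 were at least 2-fold lower in ints-4(RNAi) (median −0.55) and 1 in numr-1/2(RNAi) (median −0.04). Of the 6 hypodermis markers, 3 were at least 2-fold lower and only col-19 was higher in numr-1/2(RNAi) (median −0.80). In ints-4(RNAi), 2 of these 6 (median −0.68) and 2 of 5 intestine markers were at least 2-fold lower. The 4 body wall muscle markers never reached 2-fold in the 5 tables, and 1 of 5 neuron markers did, in numr-1/2(RNAi). All defining markers of these lists were above 0 in every group except the sperm genes msp-32 and ssp-37.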

How the data were processed

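Poly(A) RNA of 18 libraries was sequenced. The submitters' notes name HISAT2 2.1.0, HTSeq 0.6.1 and Cufflinks 2.1.1, and the study's methods DEGSeq and rMATS. Their genome build was not given in the sources used here. Per the labels and headers, the deposited expression signal is 1 scaled value per gene and group, normalized by the authors within each of 5 tables. The rMATS tables deposited by the authors join the read counts of 3 libraries in 1 cell, with inclusion levels as fractions and effective form lengths as scores. The authors' own fold changes, inclusion differences and p-values, also deposited, were not read.

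Joined counts that had lost their separators were split where exactly 1 split gave the deposited inclusion levels. Of 37570 cell pairs, 16139 kept separators, 13788 had 1 split, and 7612 with several splits and 31 with none were left out. In the ints-4(RNAi) cadmium splicing sheets the second sample equalled control(RNAi) with cadmium in 1202 of 1202 shared events, and was used as that group. Replicate numbers are positions in a cell. Libraries of a group differed by more than counting noise (chi-square per degree of freedom 5.09 to 25.6).

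Group values were compared as log2 ratios without pseudocount, for genes above 0 in both groups, with a threshold of 2-fold. Reads over events (at least 10 per library, 0.5 added before log2) were tested with limma 3.58.1 in R 4.3.3, and inclusion by a quasi-binomial model with limma's variance squeezing, both with Benjamini-Hochberg adjustment at 0.05. Count models such as negative binomial tests were not used because group values are not counts. Scripts were tested on simulated data. Named members were the 5 highest and 5 lowest ratios per comparison among those with a value of at least 10 in either group, the 5 highest in control(RNAi), every called member and event, and up to 3 genes per list. Values of other members were added after they were seen. The members and lists were chosen with earlier results of these data known. Gene structures came from the WBcel235 annotation, on which 97.5% of 197 member exon ends fell. Alternatives were a pseudocount of 1, a minimum value of 10, centring on all genes, each family alone, other read scaling and sums, at least 20 reads, another splicing test, and leaving out each library.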

Additional observations from a re-analysis of the deposited data

Results flagged for a closer look

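The cadmium effect on pqn-32 differed between RNAi backgrounds. Reads over its most covered event, scaled to 1000000 per library, were 1078, 1419 and 1126 in control(RNAi), 1309, 1575 and 1571 with cadmium, 653, 824 and 659 in ints-4(RNAi), and 345, 386 and 196 in ints-4(RNAi) with cadmium. The difference of the 2 cadmium effects was −1.55 on the log2 scale (SE 0.35, limma interaction test across 977 genes, adjusted p = 0.0209), where 4.2% of those genes passed. It stayed between −1.74 and −1.26 when single libraries were left out, and was past the threshold except without control(RNAi) replicate 1 (adjusted p = 0.0524) or ints-4(RNAi) replicate 2 (0.0601). No other member passed this test (lowest adjusted p 0.0908, for pqn-41). None passed for numr-1/2(RNAi) against control(RNAi), where pqn-53 was lowest (adjusted p = 0.13) and 1.33% of genes passed. This interaction fit was chosen after seeing the data.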

How the results depend on the processing

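The median log2 ratios of abu genes alone were −0.66, −1.29 and −0.63 for cadmium in the control(RNAi), the numr-1/2(RNAi) and the ints-4(RNAi) background, 1.76 and −1.73 for the 2 RNAi groups without cadmium, and 0.69 and −2.04 with it. Those of pqn genes alone were 0.012 for cadmium in control(RNAi), −0.13 for ints-4(RNAi) without cadmium, the same −0.13 for numr-1/2(RNAi), and −0.034 for numr-1/2(RNAi) with it. Among members with a value of at least 10, those at least 2-fold higher numbered 4 in numr-1/2(RNAi) and 0 in ints-4(RNAi), both with cadmium. A pseudocount of 1 and centring on all genes moved no count over all members by more than 1.5 times. Counts for abu genes could move more. Those at least 2-fold lower with cadmium in control(RNAi) numbered 4 of 13 without the pseudocount and 2 of 13 with it. The pseudocount brought pqn-91 to −0.98 for cadmium in ints-4(RNAi) and −1.40 for ints-4(RNAi) with cadmium.

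With median-ratio scaling of the reads, members that fell numbered 1 for cadmium in numr-1/2(RNAi) and 2 for numr-1/2(RNAi) with cadmium, and the rise of pqn-70 was lost (adjusted p = 0.0811), as with all events summed (0.0511). A limma test of log2 inclusion ratios called 0 member events for cadmium in numr-1/2(RNAi), 0 for numr-1/2(RNAi) and 0 for numr-1/2(RNAi) with cadmium, and at most 1 event of all tested in any comparison. Leaving out single libraries, members that rose numbered 0 to 1 for cadmium in control(RNAi), 0 to 2 for cadmium in numr-1/2(RNAi), 2 to 4 for numr-1/2(RNAi) and 1 to 2 for numr-1/2(RNAi) with cadmium. Members that fell numbered 0 to 1 for cadmium in numr-1/2(RNAi), 0 to 3 for cadmium in ints-4(RNAi) and 0 to 1 for numr-1/2(RNAi) with cadmium. Called member events ranged from 0 to 1 for cadmium in control(RNAi), 1 to 2 for cadmium in numr-1/2(RNAi) and 2 to 4 for numr-1/2(RNAi). The cause of these shifts was not tested, and no value of a called result reversed. No paired analysis was possible because the columns carry no replicate numbers. Group values have no depth or spread, which limits every statement on the abu genes other than abu-12.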
